A study of Mus musculus with 6 samples.

Results

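The metallothionein genes Mt1 and Mt2 and genes that move zinc, copper and manganese across membranes were followed in the livers of mice that drank source water. The members were Mt1, Mt2, Mtf1, Slc30a1, Slc30a10, Slc39a4, Slc39a8, Slc39a14, Atp7b and Cp, taken by gene symbol with every probe set that carried only that symbol. Of the 10 listed genes, 9 were found on the array, with 20 of the 22626 probe sets tested, among 12393 genes with such a probe set. No probe set carried the symbol Slc30a10 alone, so that manganese exporter was not analysed here.

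All animals were male C57BL/6J mice kept in 12 h of light and 12 h of darkness, and the labels gave no age. Control mice drank distilled water and the other mice drank source water (DSW in the labels), for 90 d, with 10 mice in each group. The livers of 9 mice per group were homogenised in sets of 3, so that each of the 3 arrays per group measured a pool of 3 mice, and the spread between arrays is a spread between pools. The labels did not give the origin or the metal content of the source water, or how the mice were assigned to pools.

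Metallothioneins are small cysteine-rich proteins that bind zinc, copper and cadmium, and the liver is a major site of their synthesis. When free zinc rises, the zinc-sensing transcription factor MTF1, encoded by Mtf1, binds metal response elements and activates Mt1, Mt2 and the zinc exporter gene Slc30a1. Glucocorticoids and inflammatory cytokines also induce metallothioneins in liver. Zinc enters cells through importers of the Slc39a family, whereas hepatic copper is loaded by the ATPase Atp7b onto ceruloplasmin, the product of Cp, or excreted into bile.

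The windows around the annotated starts of the metallothionein genes and of Slc30a1 are shown because these 3 genes are textbook targets of MTF1. Sequences are from RefSeq on GRCm38.p6, plus strand, from 250 bases before to 50 bases after the start, and capitals mark each match to the metal response element core, searched as TGCACNC or TGCGCNC on both strands. The windows are chr8:94172368-94172667 for Mt2, chr8:94178839-94179138 for Mt1 and chr1:191906531-191906830 for Slc30a1.
Mt1: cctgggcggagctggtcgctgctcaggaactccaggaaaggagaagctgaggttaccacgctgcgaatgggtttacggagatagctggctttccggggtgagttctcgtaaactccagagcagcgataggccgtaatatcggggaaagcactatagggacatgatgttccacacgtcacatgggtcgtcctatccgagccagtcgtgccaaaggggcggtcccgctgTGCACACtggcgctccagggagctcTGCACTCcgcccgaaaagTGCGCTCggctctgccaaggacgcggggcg
Mt2: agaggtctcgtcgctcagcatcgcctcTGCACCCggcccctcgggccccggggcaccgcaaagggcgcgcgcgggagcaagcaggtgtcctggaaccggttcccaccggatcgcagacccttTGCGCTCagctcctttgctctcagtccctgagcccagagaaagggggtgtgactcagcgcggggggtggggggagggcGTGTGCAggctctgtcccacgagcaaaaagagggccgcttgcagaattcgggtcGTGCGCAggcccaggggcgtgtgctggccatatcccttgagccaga
Slc30a1: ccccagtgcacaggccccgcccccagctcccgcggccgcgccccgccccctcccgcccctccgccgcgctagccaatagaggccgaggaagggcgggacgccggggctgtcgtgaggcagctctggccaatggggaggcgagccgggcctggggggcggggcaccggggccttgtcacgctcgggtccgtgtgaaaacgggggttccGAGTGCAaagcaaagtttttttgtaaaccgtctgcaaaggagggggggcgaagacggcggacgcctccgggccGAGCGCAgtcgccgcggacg
The Mt2 window held 4 matches, the Mt1 window 3 and the Slc30a1 window 2. Of 32851 windows of this length, 25.7% held at least 1 match, 7.11% at least 2, 1.97% at least 3 and 0.518% at least 4. In the Mt1 window the matches began at positions -23, 3 and 21 from the annotated start, and in the Mt2 window at -223, -128, -50 and 5. The antioxidant response element core, searched as TGACNNNGC on both strands, occurred in the Mt2 and Slc30a1 windows, at -79 and -82, not in the Mt1 window, and in 12.4% of all windows. Of the other members, Slc30a10 had 3 matches to the metal response core, 2 of them overlapping on opposite strands, and Atp7b had 1. Slc39a8 had 1 in one of its windows and an antioxidant response core in the other. The windows of Mtf1 and Cp had no match to either core, and 8 of the 10 genes had a window in the table, Slc39a4 and Slc39a14 having none. A match describes these letters and is not a measured binding site. The search covered only these windows, so an absence of a match says nothing of the sequence outside them.

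The values are log2 signals per probe set, and each difference is source water minus control. Array medians lay between 5.80 and 5.86. The liver label was checked against hepatocyte markers, whose mean level was 14.06 to 14.11 in control arrays and 14.04 to 14.14 in source water arrays. Of the 6 measured, 3 were higher and 3 lower in source water. Cps1 lay lower without overlap, at 13.62 to 13.78 in source water and 13.80 to 13.94 in control. Fewer cells of a type and less RNA per cell cannot be told apart in whole-liver RNA. Of the added control RNAs, dap had a 3' minus 5' signal (log2 units) of 1.21 to 1.64 in control and 1.84 to 2.17 in source water. A second set of dap probes did not overlap either (2.36 to 2.65 and 2.94 to 3.25). For thr the signal was 2.52 to 2.91 and 3.30 to 3.51, although a second set of thr probes overlapped (2.25 to 2.87 and 2.56 to 3.18). Those of lys, phe and the mouse Actb and Gapdh controls overlapped between the groups. The part of these control signals in the results was not tested.

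By their brightest probe sets, Mt1 and Mt2 had lower means in source water and the zinc importer genes Slc39a4 and Slc39a8 had higher means, and 1 of 7 ceruloplasmin probe sets stood 1.40-fold lower. No member passed the test across all probe sets. With limma and Benjamini-Hochberg adjustment, 0 of the 20 member probe sets had an adjusted p under 0.05, a threshold passed by 0.0398% of all probe sets. Without adjustment, 4 of 20 had a p under 0.05, belonging to Mt1, Slc39a4, Slc39a8 and Cp, where 6.02% of all probe sets did. That count was 0 of 20 with an unmoderated statistic, where 5.52% of all probe sets had such a p. It was 2 or 3 of 20 with any 1 array left out, where 4.75% to 7.17% of all did. The groups did not overlap for 2 of 20, Mt1 and Slc39a8, where 10.7% of all probe sets did not overlap. Of the 20, 9 were higher and 11 lower, with a median difference of -0.022 beside -0.0090 over all probe sets. The limma adjusted p-values of these 4 unadjusted calls ran from 0.676 to 0.753.

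**Figure D1:**
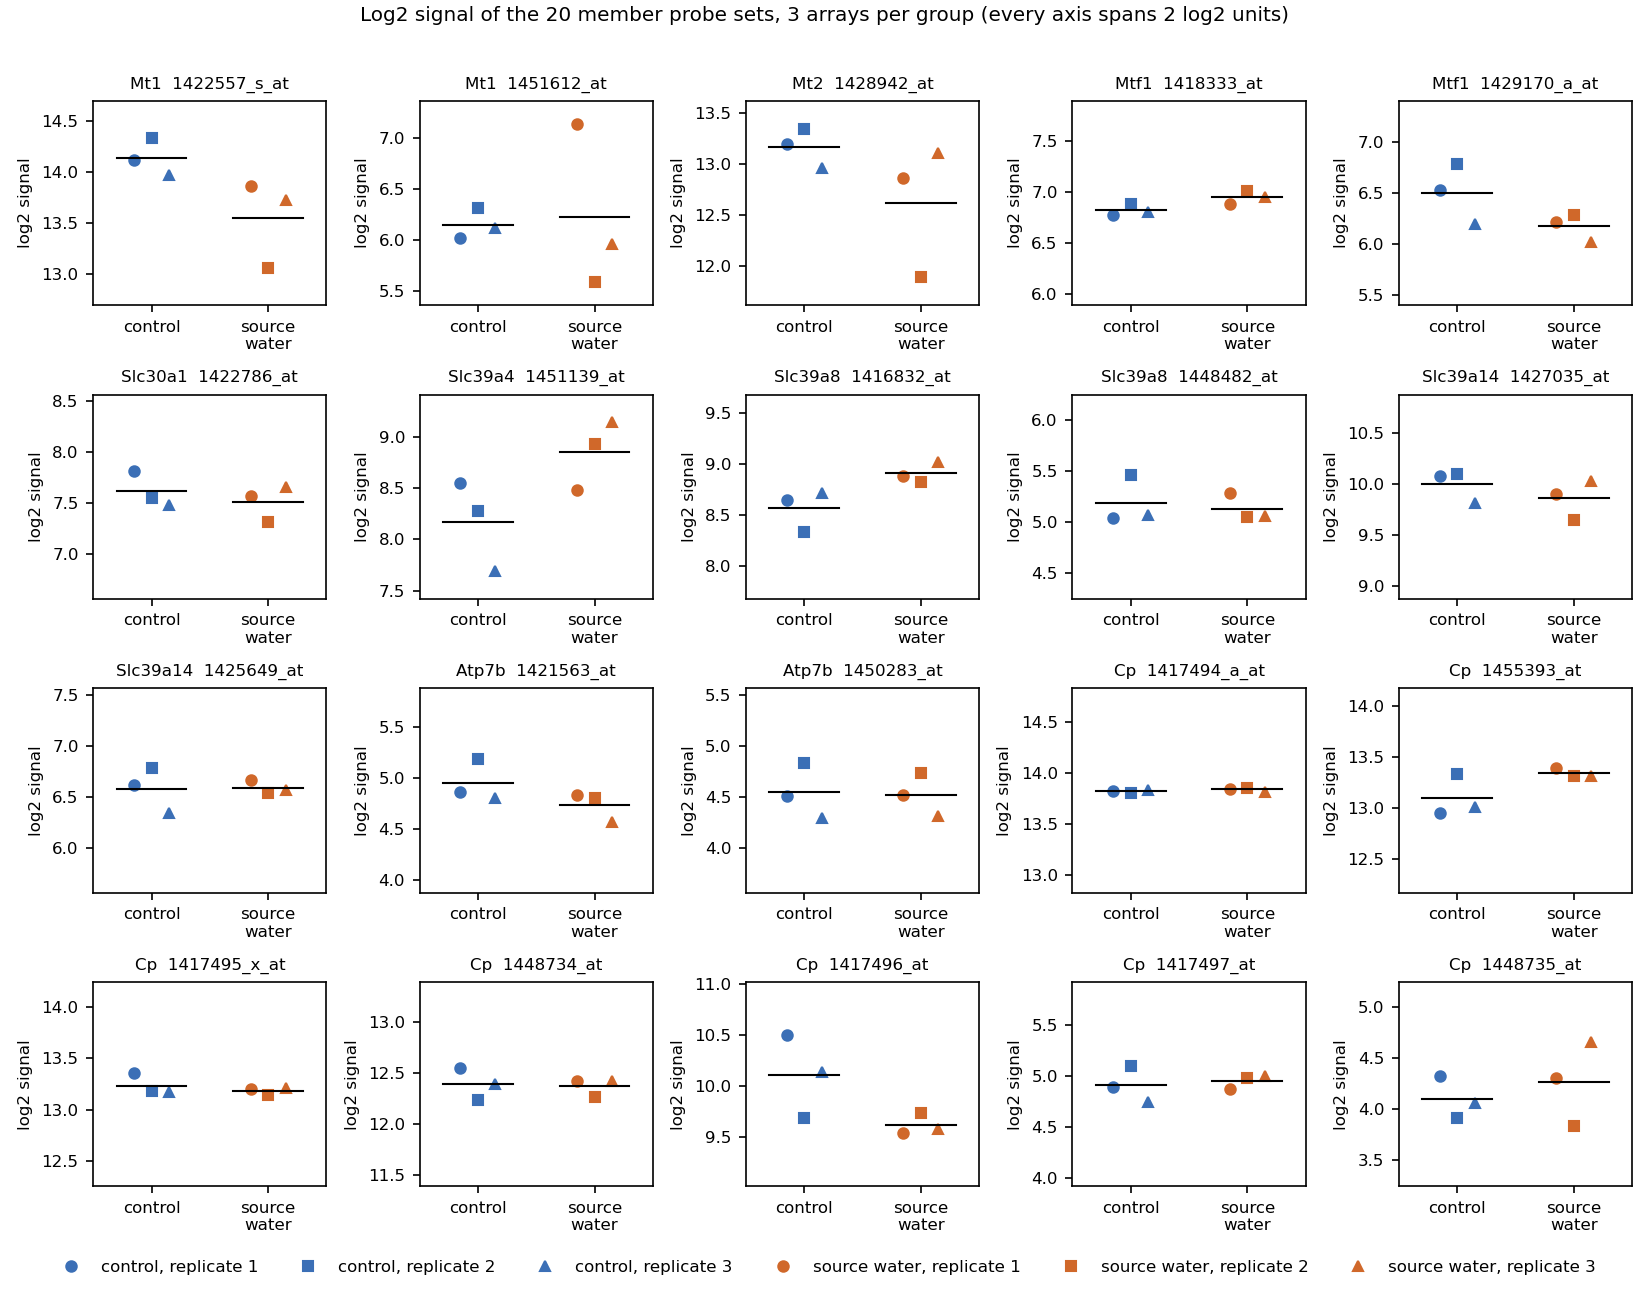
Log2 signal (vertical axes, each spanning 2 log2 units) of the 20 member probe sets on the 3 control arrays (blue) and the 3 source water arrays (orange), with symbols for replicate numbers and a black line at each group mean. For Mt1 (1422557_s_at) all source water arrays lie below all control arrays, for Slc39a8 (1416832_at) all lie above them, and source water replicate 2 is the lowest array for Mt1 and Mt2.

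The brighter Mt1 probe set, 1422557_s_at, read 14.11, 14.33 and 13.97 in the 3 control pools and 13.86, 13.06 and 13.73 in the 3 source water pools. All source water pools lay below all control pools, and replicate 2 of source water lay farthest below. The mean was 14.13 ± 0.18 (SD, n = 3) in control and 13.55 ± 0.43 in source water, a log2 difference of -0.59 ± 0.21 (SE), or 1.50-fold lower. The limma 95% interval of that difference ran from -1.07 to -0.10, with an unadjusted p of 0.0229 and an adjusted p of 0.676. The suffix of this probe set marks probes that may bind transcripts of more than 1 gene, so its signal may not be Mt1 alone.

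The dimmer Mt1 probe set, 1451612_at, did not show that separation. It read 6.02, 6.32 and 6.12 in control and 7.14, 5.59 and 5.97 in source water. The highest and the lowest of the 6 arrays were both source water pools, and the difference was 0.08 ± 0.35 (SE, limma adjusted p = 0.999). Its interval, -0.72 to 0.88, included the difference of the brighter probe set. With the values of both probe sets averaged, Mt1 differed by -0.25 ± 0.26 (SE, limma unadjusted p = 0.358).

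Mt2, which lies beside Mt1 on chromosome 8 and encodes the other main hepatic isoform, had a single probe set. Its values were 13.19, 13.35 and 12.96 in control and 12.86, 11.89 and 13.10 in source water. The groups overlapped, since source water replicate 3 lay above control replicate 3, and replicate 2 of source water was again the lowest. The difference was -0.55 ± 0.29 (SE), or 1.47-fold lower, with a 95% interval from -1.21 to 0.11 and a limma adjusted p of 0.932. The difference was of similar size to that of Mt1, but Mt2 had more spread in source water (SD 0.64, n = 3) than in control (SD 0.19).

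Source water replicate 2 carried much of both metallothionein differences. Without it, Mt1 differed by -0.34 and Mt2 by -0.19, against -0.59 and -0.55 with all arrays, and the unadjusted limma p of Mt1 was 0.0513. Control replicate 2, the highest array for Mt1 and Mt2, also bore on Mt1, which without it differed by -0.49 with an unadjusted limma p of 0.0669. Relative to the control mean, source water replicate 2 read -1.07 for Mt1 and -1.28 for Mt2. The other source water pools read -0.28 and -0.41 for Mt1 and -0.31 and -0.064 for Mt2. Of the 6 arrays, source water replicate 2 was the lowest for 7 of the 20 member probe sets, and for 14.4% of all probe sets. Control replicate 2 was the highest for 9 of the 20, and for 26.5% of all. The 7 lowest in source water replicate 2 belonged to Mt1 (both probe sets), Mt2, Slc30a1, Slc39a14 and Cp (2 probe sets).

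Genes of other pathways known to accompany metallothionein induction had values of their own in that pool. The mean of 19 genes listed as of the interleukin-6 type acute phase was 11.48 in source water replicate 2, below the 11.95 to 12.12 of control arrays. It was 12.37 and 12.25 in the other source water pools. Induction of each listed gene by interleukin-6 was not tested. The mean of 12 glucocorticoid-induced genes was 9.35 there, 9.75 to 9.97 in control, and 10.16 and 10.29 in the other source water pools. The means of both lists were thus lowest in the pool where Mt1 and Mt2 were lowest. They were above all control arrays in the remaining source water pools, where Mt1 was below all control arrays. Not every list gene was lowest in source water replicate 2. Orm2, the gene of an acute phase plasma protein, read 7.81 in that pool and 10.01 to 10.66 on the other arrays. Crp of the same list was highest there, at 12.87 beside 12.57 to 12.80 on the other arrays. Tdo2 of the glucocorticoid list read 13.99 there and 13.77 to 14.02 on the other arrays. Whether either response had a part in the metallothionein values was not tested.

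**Figure D2:**
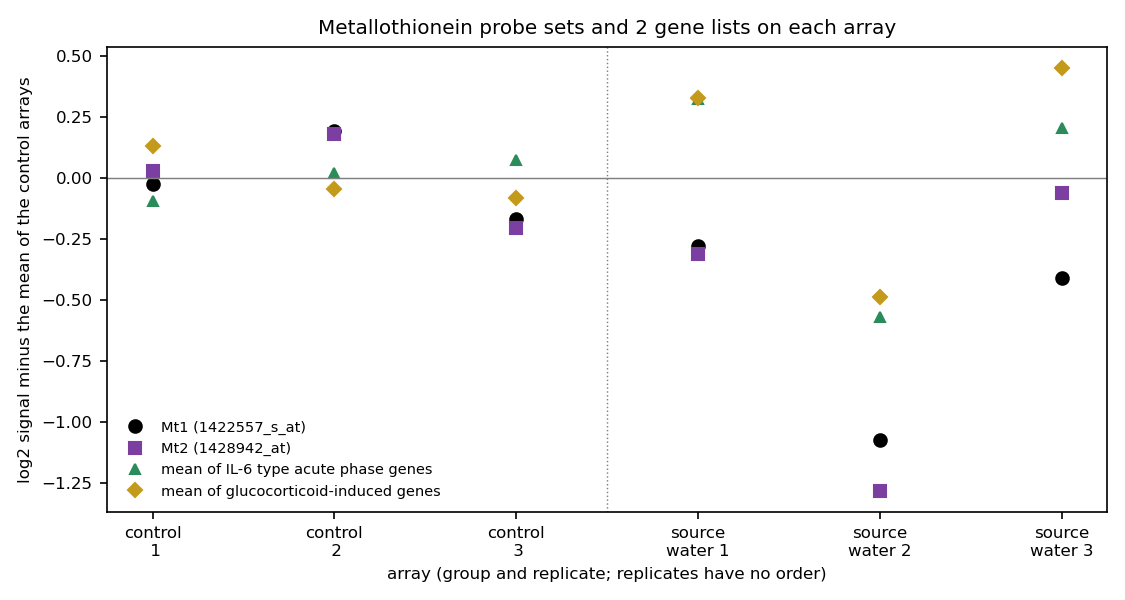
Log2 signal minus the mean of the control arrays (vertical axis) on each of the 6 arrays (horizontal axis, in no order within a group) for Mt1, Mt2 and the means of the acute phase and glucocorticoid-induced gene lists. Source water replicate 2 is the lowest array for all 4, at -1.07 for Mt1 and -1.28 for Mt2, whereas on source water replicates 1 and 3 the lists lie above 0 and both metallothioneins below it.

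Across the 6 arrays, Mt1 and Mt2 had a Pearson r of 0.943 and a Spearman rho of 0.829. The exact permutation p-values, two-sided, were 0.0139 and 0.0583. The permutations ran over all 6 arrays without regard to group, so the lower source water means of both genes enter these values. Correlation within the groups was not tested. Mt1 and Mt2 were the only pair of members tested for correlation. Mt1 was read here from 1422557_s_at, whose probes may bind transcripts of more than 1 gene. Whether they also bind Mt2 was not tested. When the arrays farthest from the median of Mt1, source water replicate 2 and control replicate 2, were left out, r was 0.340 over 4 arrays. Leaving out the farthest arrays narrows the range of Mt1, and 4 arrays are too few to tell a weak relation from a strong relation.

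Among 587 genes that were brighter than the median probe set and ranged over at least 1 log2 unit, Mt2 ranked 5 by its correlation with the same Mt1 probe set. Higher correlations over the 6 arrays were those of Parp16 (0.991), the urea cycle gene Asl (0.963), the nicotinamide methyltransferase gene Nnmt (0.951) and the kinase gene Mknk2 (0.944). They were chosen for this likeness, and their own differences ran from -0.37 for Mknk2 to -0.58 for Asl. For all 4, as for Mt1 and Mt2, source water replicate 2 was the lowest array, with Asl at 11.56 there and at 12.31 to 12.88 elsewhere.

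Mtf1, which encodes the zinc sensor that activates metallothionein transcription, had a pair of probe sets that differed in sign. Probe set 1418333_at read 6.78, 6.89 and 6.80 in control and 6.88, 7.01 and 6.95 in source water. These groups overlapped by a small margin, control replicate 2 lying just above source water replicate 1, and the difference was 0.13 ± 0.10 (SE, limma adjusted p = 0.999). Probe set 1429170_a_at read 6.52, 6.78 and 6.19 in control and 6.22, 6.29 and 6.02 in source water, with control replicate 3 inside the source water range. Its difference was -0.32 ± 0.16 (SE, limma adjusted p = 0.906), and the mean of both probe sets differed by -0.098 ± 0.11. The data thus gave no single direction for Mtf1.

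Slc30a1, which encodes the zinc exporter of the plasma membrane and is activated by MTF1, read 7.81, 7.55 and 7.48 in control and 7.57, 7.31 and 7.66 in source water. The groups overlapped, and the difference was -0.10 ± 0.14 (SE, limma adjusted p = 0.999). Its 95% interval, -0.42 to 0.22, included 0, but it did not reach the -0.59 of Mt1. The difference between the genes was not tested.

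Slc39a4, which encodes a zinc importer best known from intestinal zinc uptake, had the largest mean difference of the members. It read 8.55, 8.28 and 7.69 in control and 8.48, 8.93 and 9.15 in source water. The groups overlapped, since source water replicate 1 lay below control replicate 1, and control replicate 3 stood lowest. The means were 8.17 ± 0.44 (SD, n = 3) and 8.85 ± 0.34, a difference of 0.68 ± 0.24 (SE), or 1.60-fold higher, with a 95% interval from 0.12 to 1.24. The unadjusted p was 0.0234 and the limma adjusted p 0.680. Without control replicate 3 the difference was 0.44, with an unadjusted limma p of 0.0793, and that p was 0.0615 or 0.0800 when source water replicate 2 or 3 was left out.

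Slc39a8, which encodes an importer of zinc and manganese, was the member whose source water pools all lay above control. Its brighter probe set, 1416832_at, read 8.65, 8.34 and 8.72 in control and 8.89, 8.82 and 9.02 in source water. The gap between the groups was small, from 8.72 to 8.82, and control replicate 2 stood lowest. The difference was 0.34 ± 0.13 (SE), or 1.27-fold higher, with a 95% interval from 0.040 to 0.65, an unadjusted p of 0.0311 and a limma adjusted p of 0.725. Without control replicate 2 it was 0.23, with an unadjusted limma p of 0.0965, and that p was 0.0632 or 0.0937 when source water replicate 1 or 3 was left out. The second probe set, 1448482_at, lay below the median level of all probe sets, ranged from 5.04 to 5.46 in control and from 5.05 to 5.29 in source water, and differed by -0.06 ± 0.14. With both probe sets averaged, Slc39a8 differed by 0.14 ± 0.091 (SE, limma unadjusted p = 0.154).

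Slc39a14, which encodes an importer of zinc, manganese and iron that is induced in the acute phase, differed little. Probe set 1427035_at read 10.08, 10.10 and 9.82 in control and 9.90, 9.66 and 10.03 in source water. The groups overlapped, with source water replicate 2 lowest, and the difference was -0.14 ± 0.14 (SE, limma adjusted p = 0.999). Probe set 1425649_at ranged from 6.34 to 6.78 in control and from 6.54 to 6.66 in source water and differed by 0.01 ± 0.13. The 95% intervals of both lay between -0.45 and 0.31. Differences between the importer genes were not tested.

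**Figure D3:**
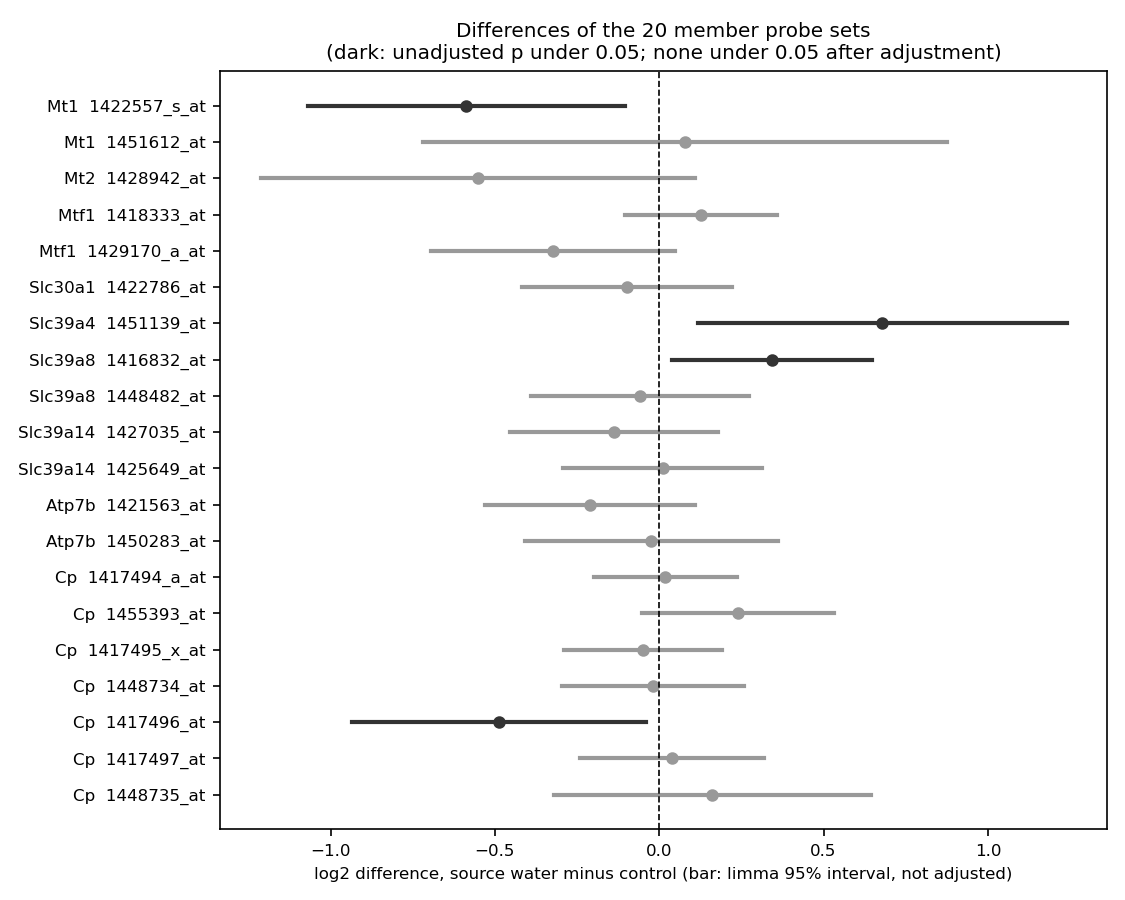
Log2 difference, source water minus control (horizontal axis), of each member probe set with its unadjusted limma 95% interval from 6 arrays. The intervals of Mt1 (1422557_s_at), Slc39a4, Slc39a8 (1416832_at) and Cp (1417496_at) exclude 0, and 0 of the 20 differences had an adjusted p under 0.05.

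Atp7b, which encodes the copper ATPase that is defective in Wilson disease, was measured by 2 probe sets below the median level of all probe sets, where signals near background can understate differences. Probe set 1421563_at read 4.86, 5.19 and 4.80 in control and 4.84, 4.81 and 4.57 in source water. The groups overlapped, and the difference was -0.21 ± 0.14 (SE, limma adjusted p = 0.979). Probe set 1450283_at ranged from 4.30 to 4.83 in control and from 4.31 to 4.73 in source water and differed by -0.02 ± 0.17.

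Cp, which encodes the ferroxidase ceruloplasmin that carries most plasma copper, had 7 probe sets, of which 6 had differences within 0.24 of 0. The brightest, 1417494_a_at, read 13.83, 13.80 and 13.83 in control and 13.84, 13.86 and 13.82 in source water. That was the narrowest spread among the members, with a difference of 0.02 ± 0.09 (SE, limma adjusted p = 0.999) and a 95% interval from -0.20 to 0.24. Probe set 1455393_at differed by 0.24 ± 0.13, 1417495_x_at by -0.05 ± 0.10 and 1448734_at by -0.02 ± 0.12. Those below the median level of all probe sets, 1448735_at and 1417497_at, differed by 0.16 ± 0.21 and 0.04 ± 0.12.

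The remaining ceruloplasmin probe set, 1417496_at, stood apart from these 6. It read 10.50, 9.69 and 10.14 in control and 9.54, 9.74 and 9.58 in source water. Control replicate 2 lay within the source water range, and control replicates 1 and 3 lay above it. The difference was -0.49 ± 0.19 (SE), or 1.40-fold lower, with a 95% interval from -0.94 to -0.041, an unadjusted p of 0.0358 and a limma adjusted p of 0.753. It was -0.29 without control replicate 1 and -0.70 without control replicate 2. The unadjusted limma p ranged from 0.00158 to 0.118 with each array left out and stayed under 0.05 only without control replicate 2 or source water replicate 2. The mean of the 7 probe sets differed by -0.014 ± 0.096.

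**Figure D4:**
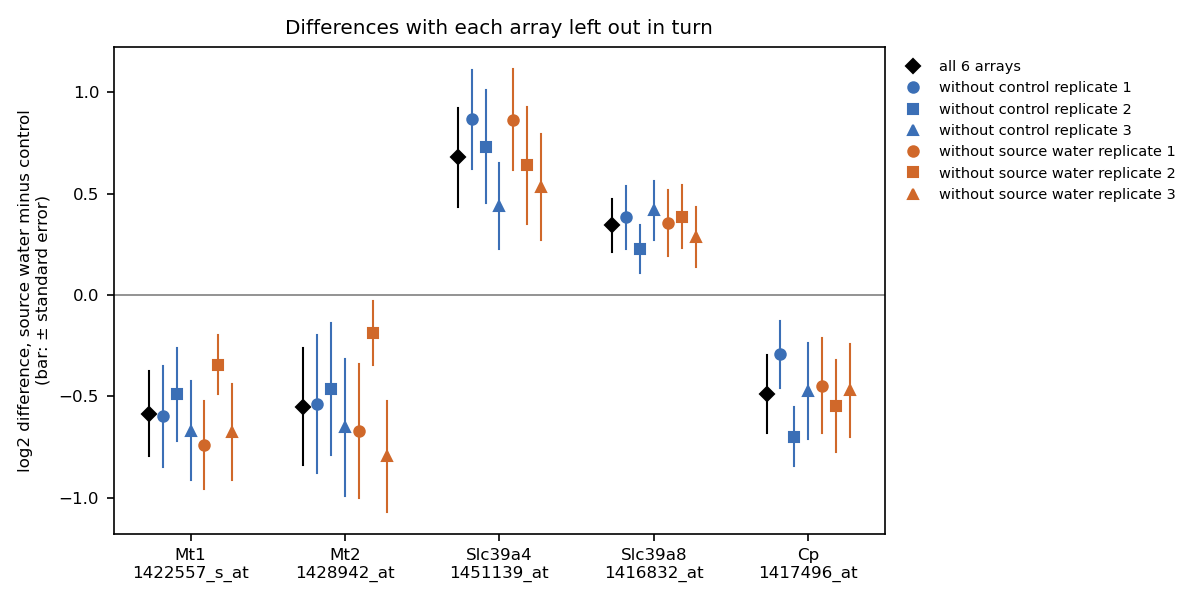
Log2 difference, source water minus control, with its standard error (vertical axis) for 5 member probe sets, with all 6 arrays (black diamonds) and with each control array (blue) or source water array (orange) left out in turn. All differences shown keep their sign, and those of Mt1 and Mt2 are smallest without source water replicate 2, at -0.34 and -0.19.

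In the authors' deposited table, 3 of the 20 member probe sets had a p-value under 0.05, where 6.81% of all probe sets did. These p-values of the authors' deposited table were 0.0131 for Mt1 (1422557_s_at), 0.0226 for Slc39a4 and 0.0423 for Cp (1455393_at). In the authors' deposited table Slc39a8 (1416832_at) had 0.0851 and Cp (1417496_at) 0.103. Of the 4 member probe sets with an unadjusted limma p under 0.05, those of Mt1 and Slc39a4 were thus also under 0.05 there.

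Other zinc genes were considered for comparison, each by its brightest probe set. Of 16 measured, 7 were higher and 9 lower, with a median difference of -0.012 beside -0.0016 over all genes. With limma 0 passed after adjustment, where 0.0323% of all genes did, and 1, the zinc transporter gene Slc39a9, had an unadjusted p under 0.05, where 6.76% did. Slc39a9 read 8.27, 7.97 and 8.16 in control and 8.44, 8.35 and 8.56 in source water, so that its groups did not overlap (difference 0.32 ± 0.12, limma adjusted p = 0.712). Its dimmer probe sets differed by 0.04 and -0.15. The next by p were Slc39a6 (-0.30 ± 0.14) and Slc30a2 (-0.28 ± 0.15). Mt3 and Mt4, metallothioneins known mainly from brain and stratified epithelia, had control means of 5.36 and 4.25 and differed by 0.02 ± 0.19 and -0.14 ± 0.11.

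Other copper genes were read in the same way. Of 14 measured, 10 had a higher and 4 a lower mean, with a median difference of 0.10. With limma 3 had an unadjusted p under 0.05, where 6.76% of all genes did, and 0 passed after adjustment, where 0.0323% did. Sco2, which encodes a mitochondrial copper chaperone for cytochrome c oxidase, read 9.42, 9.47 and 9.30 in control and 10.48, 10.39 and 10.22 in source water. Its groups lay far apart relative to their spread, with a difference of 0.97 ± 0.11 and a limma adjusted p of 0.0516. Its probe set carries a suffix for probes that may bind transcripts of more than 1 gene.

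The copper exporter gene Atp7a, a relative of Atp7b, read 6.06, 6.06 and 6.23 in control and 6.38, 6.50 and 6.56 in source water. All source water pools lay above control, with a difference of 0.37 ± 0.11 (limma adjusted p = 0.508), and its dimmer probe set differed by 0.47 ± 0.27. Sod3, which encodes the extracellular copper and zinc superoxide dismutase, differed by 0.55 ± 0.18 (limma adjusted p = 0.570), and by 0.04 in its second probe set. The importer gene Slc31a1 and the chaperone genes Atox1 and Ccs differed by -0.11, -0.03 and 0.10.

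Of 4 other manganese genes, 1 was higher and 3 were lower, with 0 past the limma test after adjustment. The manganese-dependent urea cycle enzyme gene Arg1 read 13.97, 14.00 and 14.09 in control and 13.72, 13.43 and 13.73 in source water. Its groups did not overlap (difference -0.39 ± 0.12, limma unadjusted p = 0.0107 and adjusted p = 0.538), and source water replicate 2 was again the lowest. Sod2 and Slc11a2 differed by -0.12 and -0.10.

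The acute phase list had 10 genes higher and 9 lower of 19, 0 with an unadjusted p under 0.05, and a median difference of 0.0019. The 3 of smallest p were Hamp, the iron hormone hepcidin (-0.48 ± 0.23), Saa4 (-0.33 ± 0.16) and Crp (0.16 ± 0.11). The glucocorticoid list had 7 higher and 5 lower of 12, with a median of 0.091. Cdkn1a (0.99 ± 0.39) and Sgk1 (0.81 ± 0.27) were higher and Fkbp5 (-0.96 ± 0.41) lower at an unadjusted limma p of 0.0336, 0.0183 and 0.0464, which 6.76% of all genes had under 0.05, and 0 of the 12 passed after adjustment.

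**Figure D5:**
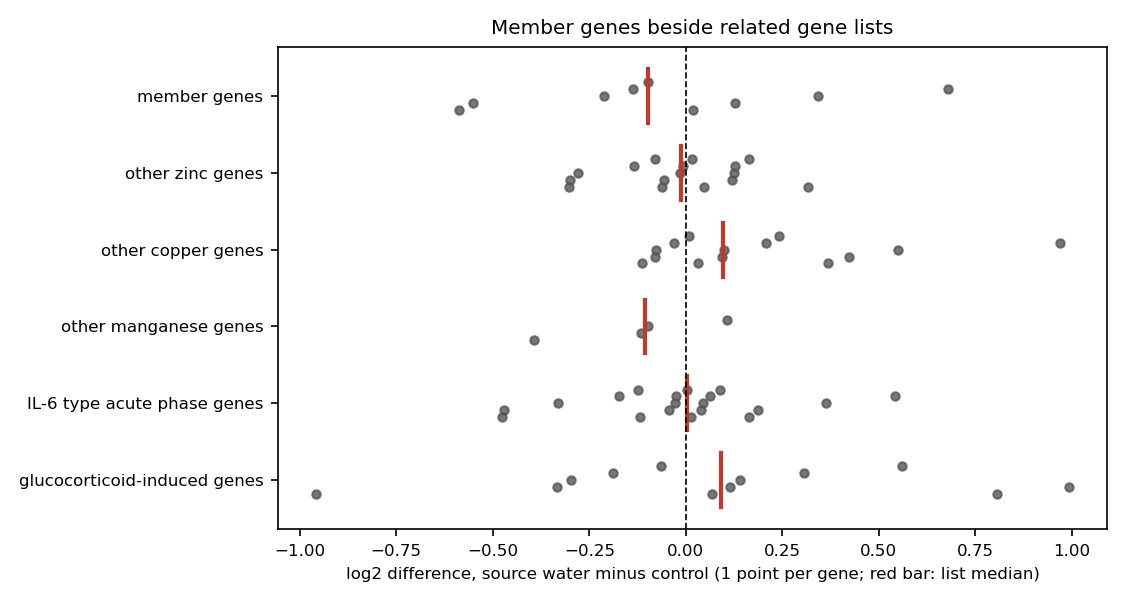
Log2 difference, source water minus control (horizontal axis), of the 9 measured member genes and of 5 related gene lists (vertical axis), 1 point per gene by its brightest probe set, with a red bar at each list's median. The medians run from -0.11 for other manganese genes to 0.10 for other copper genes, where Sco2 at 0.97 is the highest point.

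Markers of other cell types that liver RNA can hold were checked beside these values. The mean level of the stellate cell list was 6.39 to 6.57 in control and 6.63 to 6.77 in source water, without overlap, and it held Col3a1, which differed by 1.33 ± 0.27 (limma adjusted p = 0.202), and by 0.000077 in its second probe set. The other 4 markers differed by -0.27 to 0.17, and of all 5 markers 2 were higher and 3 lower. Lrat, a dim probe set, lay lower without overlap, at 3.97 to 4.12 in source water and 4.25 to 4.35 in control. Its difference was -0.27 ± 0.10 (limma adjusted p = 0.710). The means of the Kupffer cell, bile duct, endothelial, erythroid, neutrophil and acinar lists overlapped between the groups. Single markers among them did not, as for 11.5% of all genes. Stab2 (endothelial, 0.39 ± 0.11) and Krt7 (bile duct, 0.19 ± 0.11) lay higher and Cela2a (acinar, -0.36 ± 0.13) lower. Of the endothelial markers 2 were higher and 3 lower, of the bile duct markers 2 and 2, and of the acinar markers 1 and 3. The part of any cell type in the differences of the metal genes was not tested.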

How the data were processed

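Each of 6 liver RNA pools was hybridised to its own Affymetrix GeneChip with biotin label. The deposited log2 signals were made with RMA and Partek, per the submitters' processing notes, with versions and settings not given in the sources used here. In addition, the authors' deposited table holds, per the file headers, group means of log2 signals, p-values, ratios and fold changes, and their test is not given in the sources used here. Symbols came from the platform annotation and all 20 member probe sets matched by Entrez identifier. Of 22690 probe sets, 64 controls were left out.

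The members, gene lists and rules were chosen with earlier results of these data known. Groups were compared with limma 3.58.1 in R 4.3.3 (lmFit, eBayes, no covariate), adjusted by Benjamini-Hochberg over 22626 probe sets at a threshold of 0.05, after tests on simulated data. A list gene was read from its brightest probe set. Every member was named. From the zinc, copper, manganese, acute phase and glucocorticoid lists, genes past the adjusted threshold were named, or else the 3 of smallest p. The cell type lists were read by their mean levels. Other list genes, and the single cell type markers named, were chosen after their values were seen. The 5 genes most like Mt1 were named by Pearson r. The number of arrays, 3 per group, limits precision. Alternatives were a replicate block, a repeated quantile normalization, median centring, limma-trend, 2 filters on dim probe sets, a statistic without moderation, averaged probe sets and leaving out each array.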

Additional observations from a re-analysis of the deposited data

How the results depend on the processing

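Across all probe sets, the 9 calls became 45 with a replicate block, 30 after a repeated quantile normalization, 35 with limma-trend, 0 with the unmoderated statistic (1249 at an unadjusted p under 0.05) and 0 to 14 with 1 array left out. In each of these settings 0 member probe sets passed after adjustment, and the smallest adjusted p of a member was 0.201, for Cp (1417496_at) without control replicate 2, whose adjusted p ranged from 0.201 to 0.999 over all settings. The count of member probe sets with an unadjusted p under 0.05 was 4 of 20 in the main fit. With the replicate block, which added Mtf1, it was 5 of 20, where 7.45% of all probe sets had such a p. It was 5 of 20 with limma-trend (5.97% of all) and 0 of 20 with the unmoderated statistic (5.52% of all). After the repeated quantile normalization and median centring it was 4 of 20 (6.75% and 6% of all). Under each filter it was 4 of the 15 that remained (9.34% and 9.64% of all). With 1 array left out it was 2 or 3 of 20 (4.75% to 7.17% of all). Arrays of equal number had deviations from their group means that correlated at -0.073, 0.28 and 0.17, and the best partner of control replicate 1 was source water replicate 3 (0.43), so the numbers were not taken as pairs. The replicate block left every member's difference as it was and ended no call among them.

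Mt1 (1422557_s_at), Mt2, Slc39a4, Slc39a8 (1416832_at) and Cp (1417496_at) kept their direction under all alternatives, with 1 array left out at -0.74 to -0.34, -0.80 to -0.19, 0.44 to 0.87, 0.23 to 0.42 and -0.70 to -0.29. Small differences changed sign: after a repeated quantile normalization Slc39a14 (1425649_at) was at -0.0040 and Atp7b (1450283_at) at 0.0015, and with averaged probe sets Cp was at -0.014 and Mtf1 at -0.098. With 1 array left out, the ranges that included both signs were Mt1 (1451612_at) -0.38 to 0.40, Slc30a1 (1422786_at) -0.17 to 0.0016, Slc39a8 (1448482_at) -0.13 to 0.077, Slc39a14 (1425649_at) -0.11 to 0.11, Atp7b (1450283_at) -0.15 to 0.12, Cp (1417495_x_at) -0.081 to 0.0095, Cp (1448734_at) -0.10 to 0.060, Cp (1417497_at) -0.045 to 0.13, Cp (1448735_at) -0.036 to 0.38. The cause was not tested. Probe sets below the median level, 5 of the 20, and 3 pools per group limit what these data can show.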
